A study of Homo sapiens with 4 samples.

Results

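The response of HK1 cells to caffeic acid phenethyl ester (CAPE) was read from 2 of the 4 arrays of a series, as the difference between the HK1 array with CAPE and the HK1 array with DMSO across all genes. HK1 is an established epithelial line of nasopharyngeal carcinoma, and HK1EBV, whose 2 arrays are set beside it here, is its counterpart that carries the Epstein-Barr virus. Cells had stood for 24 h in 110 µM CAPE, or in 0.1% DMSO, the solvent, as the control, in the same serum-containing medium. Each group was 1 array of total RNA, and the labels do not say whether the RNA samples came from separate cultures. A probe set was used when it carried exactly 1 gene symbol, which held for 18612 of 25800, while 954 carried several and 6234 none. The brightest probe set stood for each of 18323 genes, and a gene was compared when the mean of its 4 values was 0.997 or more. That bound is the 25th percentile over the probe sets, and 15194 genes met it.

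CAPE is a phenolic ester of propolis, the resin that bees collect, and it is known in cell culture as an inhibitor of NF-κB, the factor behind many inflammatory genes. It carries a catechol that can be oxidised to an electrophile, and electrophiles release NRF2, the factor that turns on detoxification genes. Among the other programmes that cells use under chemical stress are the hypoxia response, driven by HIF factors, the ATF4 response to amino acid and folding stress, and the p53 response. Each acts on a well-known set of target genes, so that the RNA levels of these sets can be read side by side.

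With 1 array a side, no difference here has a replicate, an error or a test. A difference is the CAPE value minus the DMSO value on the log2 scale, where 1 is a 2-fold and 0.585 a 1.5-fold distance, and a level is the deposited log2 value. The only measure of spread was between probe sets of one gene, whose differences stood apart with an SD of 0.292 over 208 genes. Both probe sets read the same RNA on the same arrays, so this SD leaves out the spread between arrays or cultures. For some genes, such as CDK11B and PIGF, both gave the same difference. Levels of the 2 HK1 arrays had medians of 2.25 and 2.27, and the 4 arrays ran from -0.19 to 11.9. All genes compared had a median difference of 0.02 and an SD of 0.331, and 5% of them lay below -0.51 and 5% above 0.50. At the edge of the level filter, CYP4Z1 was just inside with a difference of -0.26 and CCDC140 just outside with 0.06. Among the 3129 genes left out by it, 0 were 2-fold apart, while at 1.5-fold 6 were higher and 8 lower.

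The cells on both arrays carried epithelial RNA. Of the 12 defining epithelial markers with a probe set, 12 passed the level filter, at a median level of 7.25 with DMSO and 7.23 with CAPE, and KRT5, a basal keratin, stood at 9.49 and 9.54. The difference of these markers had a median of 0.32, with 9 of 12 positive. Of the keratins of simple epithelia, KRT18 stood at 6.89 with DMSO and 6.83 with CAPE, and KRT8 and KRT19 at 2.53 and 2.75 with DMSO. Leukocyte, fibroblast, endothelial and airway markers had medians between 1.13 and 1.64 with DMSO, under the array median. The highest of them was CD68, a lysosomal protein of macrophages and other cells, at 7.28 with DMSO and 8.51 with CAPE, while PTPRC, which marks all leukocytes, stood at 0.46 and 0.49.

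Of the 15194 genes, 102 (0.671%) stood 2-fold or more above their DMSO level and 104 (0.684%) 2-fold or more below it. At 1.5-fold the counts were 513 higher (3.38%) and 576 lower (3.79%). These shares are the background for every count of list members below. At 3-fold 18 genes were higher and 13 lower, and at 5-fold 3 and 3. Of 3039 genes at the dim end, up to a level of 1.77, 2 were among the 102 and 3 among the 104, and of 3039 at the bright end, from 5.45, 33 and 28. By kind of gene, 98 of each set were protein-coding.

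**Figure D1:**
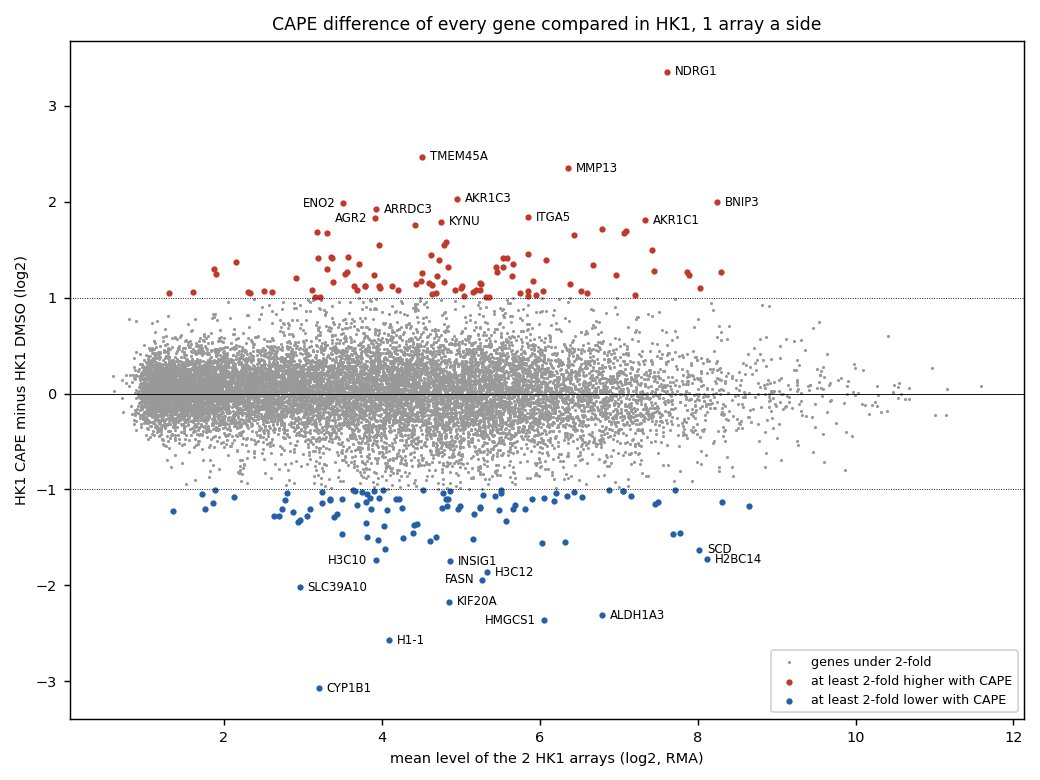
Difference between the HK1 CAPE and HK1 DMSO arrays (log2, vertical axis) against the mean level of both arrays (log2, horizontal axis) for the 15194 genes compared, 1 point a gene. Dotted lines mark 2-fold; 102 genes lie on or above the upper line and 104 on or below the lower one, with NDRG1 highest at 3.36 and CYP1B1 lowest at -3.07.

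The gene with the highest difference was NDRG1, a gene known to be induced by hypoxia and by metal chelation. Its level was 5.94 with DMSO and 9.29 with CAPE, a difference of 3.36 or 10.3-fold. In HK1EBV the same gene stood at 7.82 and 8.46, so that its control array there was already above that of HK1 and its difference was 0.63. TMEM45A, which encodes a membrane protein, stood at 3.27 and 5.75, a difference of 2.47. MMP13, collagenase 3, stood at 5.19 and 7.54, a difference of 2.35. In HK1EBV the difference of MMP13 was 0.32, from a control level of 7.53. For NDRG1 and MMP13, then, the HK1 DMSO array was the lowest of the 4.

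The others among the 25 highest covered several kinds of gene. ARRDC3, an arrestin-like adaptor for membrane proteins, stood at 2.96 and 4.88. ITGA5, the α subunit of the fibronectin receptor, stood at 4.94 and 6.78. AGR2, a disulphide isomerase of secretory cells, stood at 3.01 and 4.84. These 3 genes were thus between 3.55-fold and 3.79-fold higher. KYNU, the kynureninase of tryptophan breakdown, stood at 3.86 and 5.65, and LIPH, a secreted phospholipase, at 2.47 and 4.14. AMTN, a matrix protein of tooth enamel, stood at 6.23 and 7.90. LURAP1L, SMIM14, NRN1 and MAP1B were higher by 1.76, 1.55, 1.45 and 1.42. All 25 were higher in HK1EBV too, from 0.23 for EGLN3 to 2.25 for NMRAL2P.

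The lowest gene was CYP1B1, the cytochrome P450 known as a target of the aryl hydrocarbon receptor, at 4.74 with DMSO and 1.67 with CAPE, 8.39-fold lower. SLC39A10, a zinc importer, stood at 3.97 and 1.96. THBD, the thrombin receptor thrombomodulin, stood at 6.81 and 5.25. Besides these, the 25 lowest held 8 histone genes, 5 genes of sterol or fatty acid synthesis, and 3 genes of mitosis. FAM20C, a kinase of secreted proteins, stood at 5.44 and 3.95 in HK1, and at 2.71 and 3.24 in HK1EBV, so that it was lower in one line and higher in the other. TAF9B, OTUB2 and PIGW were lower by 1.62, 1.54 and 1.45 and encode a subunit of the TFIID complex, a deubiquitinase and an enzyme of membrane anchor synthesis.

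**Figure D2:**
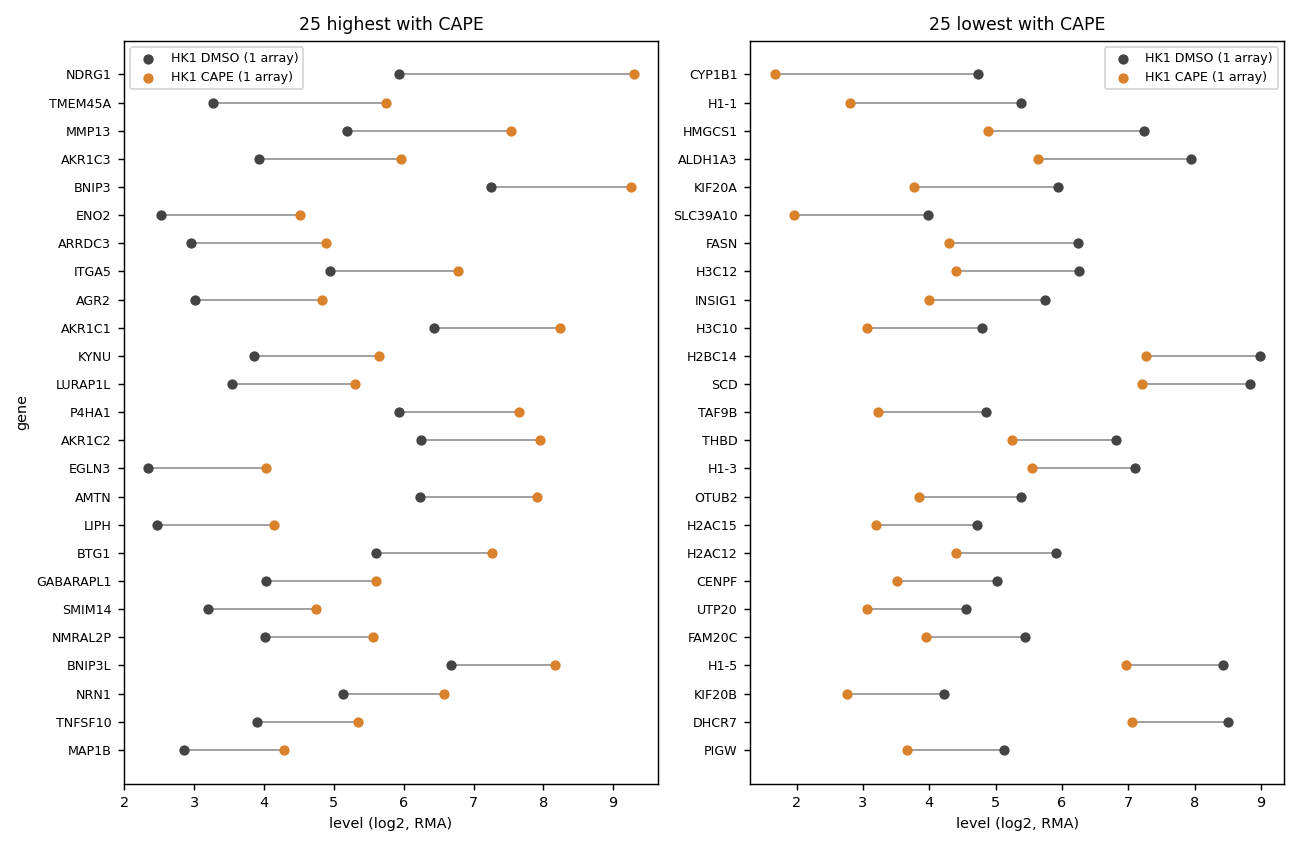
Levels (log2, horizontal axis) of the 25 highest and the 25 lowest genes on the HK1 DMSO array (grey) and the HK1 CAPE array (orange), 1 array each, with a line joining the pair. NDRG1 goes from 5.94 to 9.29 and CYP1B1 from 4.74 to 1.67; no error is drawn since there is none.

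To see which programmes these genes belonged to, 81 lists of genes with a common role were read, which held 2376 of the 15194 genes compared. Of the genes at least 2-fold apart, 58 of the 102 higher and 58 of the 104 lower were in a list. The lists were chosen with earlier results of these data known, so these counts do not measure how well they cover the response. The list medians ran from -0.70 for histones to 1.05 for aldo-keto reductases, and 9 lists had a median of at least 0.25 and 10 of at most -0.25. In 38 lists the median was under 0.1 in size.

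**Figure D3:**
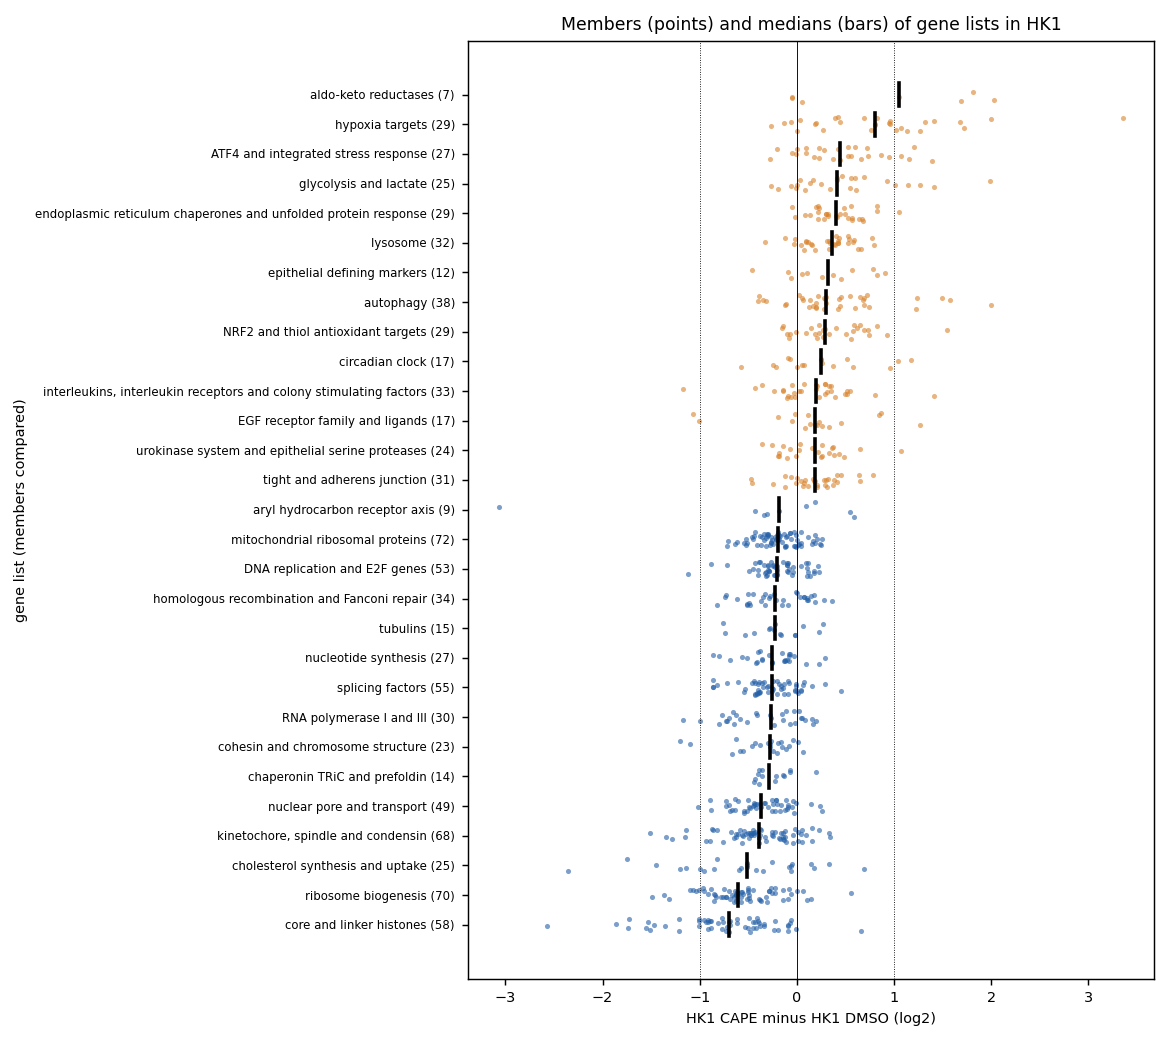
Differences of list members in HK1 (log2, horizontal axis; points) with the list median (black bar), for lists whose median was at least 0.18 in size, with the number of members compared in brackets; orange marks lists with a positive and blue lists with a negative median. The histone median lies at -0.70, that of ribosome biogenesis at -0.61 and that of hypoxia targets at 0.81.

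The hypoxia list had the highest median of the larger lists. HIF factors are held down in normal oxygen by the EGLN prolyl hydroxylases, which need iron and oxygen, and their targets raise glucose use, remodel collagen and remove mitochondria. The 29 genes compared included the factors HIF1A, HIF3A and EPAS1, of which EPAS1 was higher by 0.82. Of the 29, 18 stood at least 1.5-fold and 10 at least 2-fold higher, and 0 stood 1.5-fold lower. The median was 0.81 against 0.02 for all genes. BNIP3, a receptor for the removal of mitochondria, stood at 7.25 with DMSO and 9.25 with CAPE. EGLN3, itself a HIF hydroxylase and a HIF target, stood at 2.34 and 4.03. KDM3A, a histone demethylase, stood at 4.78 and 6.11. These genes were between 2.50-fold and 3.99-fold higher. HIF1A, the factor itself, stood at 6.67 and 6.54, and VEGFA, the vessel growth factor, at 6.73 and 7.15, both less than 1.5-fold apart. In HK1EBV the list median was 0.30, with 0.63 for NDRG1, 1.25 for BNIP3 and 0.23 for EGLN3.

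The glycolysis list, which also holds glucose transporters and kinases of pyruvate dehydrogenase, stood in the same direction. Of its 25 genes, 9 stood at least 1.5-fold and 5 at least 2-fold higher, with 0 lower by 1.5-fold and a median of 0.42. ENO2, an enolase, stood at 2.52 and 4.51. PDK1, the kinase that closes pyruvate dehydrogenase, stood at 4.88 and 6.29. SLC2A1, the glucose transporter GLUT1 and also a member of the hypoxia list, stood at 7.67 and 8.93. HK2, a hexokinase that starts glycolysis, stood at 5.81 and 6.95 and PFKL, of the committed step, at 4.82 and 5.82. Elsewhere in the pathway PGK1 was higher by 0.93, GPI by 0.69, LDHA, which makes lactate, by 0.59 and TPI1 by 0.55. In HK1EBV the median was 0.11, with 0.35 for PDK1, 0.29 for SLC2A1 and 0.00 for TPI1. PGK1 and GPI were also the 2 of 24 common reference genes at least 1.5-fold higher, in a list with a median of 0.03.

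The list of prolyl and lysyl hydroxylases, which ready collagen for its triple helix, had a median of 0.09 over 14 genes, with 6 negative. Of the 14, 4 stood at least 1.5-fold and 3 at least 2-fold higher. These 3, P4HA1, P4HA2 and PLOD2, were also members of the hypoxia list. P4HA1 and P4HA2, catalytic subunits of prolyl 4-hydroxylase, stood at 5.93 and 4.83 with DMSO and at 7.65 and 6.24 with CAPE. PLOD2, a lysyl hydroxylase, was higher by 1.02 and P4HB, the shared β subunit, by 0.74. Collagen genes themselves lay closer to 0. Of 39, 0 were 1.5-fold apart, and the median was 0.08.

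Promoters of hypoxia targets were searched for ACGTG, the core of the hypoxia response element, on both strands of the 250 bases before each start in RefSeq (GRCh38.p14). It was present in 12 of the 25 members with a promoter sequence (48.0%), and in 22.3% of 11880 compared genes with one. Members with and without it had median differences of 0.88 and 0.82. The stretches of 120 bases below are shown for 2 members among the 25 highest, picked after their values were seen, with the match in capitals. That of BNIP3 (chr10:131981995-131982114, minus strand) holds the core on both strands, as CACGTG. That of P4HA1 (chr10:73096891-73097010, minus strand) holds it once.
BNIP3: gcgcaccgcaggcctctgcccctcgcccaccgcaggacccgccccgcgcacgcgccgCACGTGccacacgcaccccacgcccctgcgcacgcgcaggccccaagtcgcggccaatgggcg
P4HA1: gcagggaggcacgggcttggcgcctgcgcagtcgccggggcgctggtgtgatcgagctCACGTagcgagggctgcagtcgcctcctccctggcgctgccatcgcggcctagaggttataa

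Mitochondrial genes did not share the direction of glycolysis. Of 43 subunits of oxidative phosphorylation 36 had a negative difference, with a median of -0.18, but 0 were 1.5-fold apart. NDUFB10 of complex I had the lowest difference, -0.50. Mitochondrial ribosomal proteins had a median of -0.20 over 72 genes, with 4 at least 1.5-fold lower, MRPS9 the lowest at -0.72. In the tricarboxylic acid cycle the median was 0.00 over 23 genes, with DLAT, of pyruvate dehydrogenase, at -0.64 and IDH2, an isocitrate dehydrogenase, at 0.72.

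Cholesterol synthesis was the metabolic pathway with the most negative median. Its genes are driven by the factor SREBF2, which INSIG proteins hold in the endoplasmic reticulum when sterols are plentiful. Of 25 genes compared, 10 stood at least 1.5-fold and 5 at least 2-fold lower, 1 was 1.5-fold higher and the median was -0.51. HMGCS1, which makes HMG-CoA, stood at 7.24 with DMSO and 4.88 with CAPE. DHCR7, of the last step, stood at 8.51 and 7.06. INSIG1, a target as well as a brake of the pathway, stood at 5.74 and 3.99. IDI1 and CYP51A1 were lower by 1.21 and 1.14, and LSS, which closes the sterol rings, stood at 4.58 and 3.58. SQLE, a rate-limiting oxygenase, was at 7.60 and 6.64, and SREBF2 itself at 5.67 and 5.09. INSIG2, the second brake and the 1 gene at least 1.5-fold higher, stood at 4.71 and 5.40.

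On the HK1EBV arrays these genes lay close to 0 as a list. There the list median was 0.01, INSIG1 stood at 5.10 and 5.93, and HMGCS1 at 5.11 and 4.65. Measured about each gene's mean over the 4 arrays, the list stood at 0.40 on HK1 DMSO, -0.17 on HK1 CAPE, -0.04 on HK1EBV DMSO and -0.02 on HK1EBV CAPE. The HK1 DMSO array was thus the one that stood apart. The part of this control array in the HK1 difference was not tested.

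Fatty acid synthesis shared this direction in its main enzymes but not over the whole list of 32 genes, whose median was -0.03. At least 1.5-fold lower were 7 genes and at least 2-fold lower 3, and 2 were 1.5-fold higher. FASN, the fatty acid synthase, stood at 6.24 and 4.30. SCD, which makes oleic acid, stood at 8.83 and 7.21. ELOVL6, an elongase, stood at 6.23 and 4.90. ACACA, which commits carbon to the pathway, and ACLY, which supplies acetyl-CoA, were lower by 0.99 and 0.76. On the side of fatty acid breakdown, ACADVL was higher, at 4.45 and 5.56. In HK1EBV, FASN was lower by 1.01 and ELOVL6 by 0.95, and SCD differed by -0.16.

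A search for the sterol regulatory element TCACNCCAC on both strands of the same promoters found it in 1 of 23 pathway genes (4.35%), against 0.833% of the compared genes. That gene was SREBF2 (chr22:41832916-41833035, plus strand), shown as the pathway's factor with the match in capitals.
SREBF2: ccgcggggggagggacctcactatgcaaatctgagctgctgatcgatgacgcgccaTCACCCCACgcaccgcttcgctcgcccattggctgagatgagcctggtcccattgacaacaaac

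Nucleotide synthesis had a median of -0.26 over 27 genes, 24 of them negative and 3 at least 1.5-fold lower. ATIC, of purine synthesis, stood at 7.17 and 6.31 and CAD, which starts pyrimidine synthesis, at 5.00 and 4.20. Sphingolipid genes had a median of 0.14, with SMPD1, the acid sphingomyelinase of lysosomes, higher by 0.76 and ACER3, a ceramidase, lower by 0.66.

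Among detoxification genes the aldo-keto reductases had the highest median, 1.05, over 7 genes compared. AKR1C3 stood at 3.93 with DMSO and 5.97 with CAPE, AKR1C1 at 6.43 and 8.24 and AKR1C2 at 6.25 and 7.95. These reductases of steroids and reactive carbonyls are near-identical copies, and the dimmer probe set of AKR1C1 differed by 0.35 only. AKR1B10, a reductase of retinal, stood at 0.79 and 1.84, among the dimmest values, and its HK1EBV difference was -0.02. AKR7A2 and AKR7A3 differed by -0.05 and 0.06, so the family was split between 4 genes at least 2-fold higher and 3 close to 0. Over so few genes the median moved with the level filter, to 0.056 without it.

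Of 29 NRF2 and thiol antioxidant targets, 8 were at least 1.5-fold higher, 1 at least 2-fold higher and 0 lower by 1.5-fold, with a median of 0.29. The gene at least 2-fold higher was NMRAL2P, a pseudogene RNA known as an NRF2 target, at 4.01 and 5.56. GCLC and GCLM, the catalytic and modifier subunits of the enzyme that limits glutathione synthesis, stood at 5.39 and 4.43 with DMSO and at 6.31 and 5.16 with CAPE. GPX2, a peroxidase, was higher by 0.83, ABCC3, an export pump, by 0.74 and FTL, of ferritin, by 0.69. Against these, NQO1, a classic target, stood at 8.83 and 8.92, and HMOX1, the inducible haem oxygenase, at 2.27 and 2.67. NFE2L2, which encodes NRF2, stood at 7.30 and 6.87 and KEAP1, its inhibitor, at 4.92 and 5.07.

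The antioxidant response element TGACNNNGC was present on either strand in 6 of 21 of these promoters (28.6%) and in 12.2% of the compared genes. The windows of GCLM (chr1:93909431-93909550, minus strand) and GPX2 (chr14:64942804-64942923, minus strand) are shown as 2 members above 1.5-fold that hold it, with the match in capitals. Both matches lie on the strand opposite to the one printed.
GCLM: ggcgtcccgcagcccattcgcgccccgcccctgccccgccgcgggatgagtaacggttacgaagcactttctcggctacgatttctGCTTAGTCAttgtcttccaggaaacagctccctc
GPX2: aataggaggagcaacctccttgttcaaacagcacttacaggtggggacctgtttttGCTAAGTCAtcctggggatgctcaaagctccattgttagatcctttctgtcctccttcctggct

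The cytochromes P450 had no common direction, with a median of -0.01 over 30 genes. CYP1B1 was the lowest, while CYP1A1 and CYP1A2, the other classic targets of the aryl hydrocarbon receptor, stood at 1.39 and 1.41 with DMSO and at 1.05 and 1.96 with CAPE, both under the array median. AHR, the receptor, stood at 7.26 and 7.45, and its partner ARNT at 5.70 and 6.29. CYP4F11, a hydroxylase of fatty acids, was the other way, at 6.01 and 7.35. CYP51A1 belongs to the cholesterol pathway above. Among retinoid genes ALDH1A3, which makes retinoic acid, stood at 7.95 and 5.64 and DHRS9, a retinol dehydrogenase, was higher by 0.90.

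Metal handling was mixed. MT1F and MT1X, metallothioneins that are similar copies, stood at 6.80 and 7.22 with DMSO and at 8.08 and 8.20 with CAPE. The brighter metallothioneins MT2A, MT1E and MT1G differed less, by 0.27, 0.14 and 0.35. Over 28 genes of metallothioneins and zinc transport the median was 0.18, with 3 at least 1.5-fold higher and 1 lower, SLC39A10. SLC39A7, which releases zinc from the secretory pathway, was higher by 0.70, and MTF1, the zinc-sensing factor, differed by 0.17. TFRC, the receptor for iron uptake, was at 8.08 and 8.65. Among the transporters of drugs ABCG2 stood at 5.61 and 4.82. GSTM4 was the 1 conjugating enzyme higher by more than 1.5-fold, at 2.76 and 3.66.

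In the ATF4 list, which answers amino acid shortage and stalled protein synthesis, 10 of 27 genes were at least 1.5-fold higher, 4 at least 2-fold higher and 0 lower by 1.5-fold, with a median of 0.45. DDIT3, the stress factor CHOP, stood at 4.03 and 5.43. ATF3 stood at 2.31 and 3.52, and NUPR1, a small stress-induced chromatin protein, at 4.21 and 5.37. DDIT4, an inhibitor of mTOR signalling, was higher by 0.95 and STC2, a secreted glycoprotein, by 1.08. ATF4 itself stood at 7.66 and 7.75, and ASNS, the asparagine synthetase that is often used to read this pathway, at 7.34 and 7.57. In HK1EBV the list median was 0.88, with ATF4 higher by 0.79 and ASNS by 1.58. Here HK1 thus had the smaller difference, and ASNS stood lowest on the HK1EBV DMSO array, at 6.36.

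The C/EBP-ATF response element TGATGNAA was present in 4 of 22 of these promoters (18.2%) and in 1.68% of the compared genes. The windows of ATF3 (chr1:212565160-212565279, plus strand) and CHAC1 (chr15:40953221-40953340, plus strand), an enzyme that breaks down glutathione, are shown for members higher by 1.21 and 0.72. The match is in capitals, on the printed strand in ATF3 and on the other in CHAC1.
ATF3: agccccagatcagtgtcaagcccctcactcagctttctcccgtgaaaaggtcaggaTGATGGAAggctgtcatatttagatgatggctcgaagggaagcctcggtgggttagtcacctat
CHAC1: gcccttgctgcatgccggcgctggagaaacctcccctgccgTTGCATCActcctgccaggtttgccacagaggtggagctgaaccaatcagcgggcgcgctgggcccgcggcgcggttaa

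Chaperones differed by list. Those of the endoplasmic reticulum, with the other genes of the unfolded protein response, had a median of 0.40, with 27 of 29 positive and 6 at least 1.5-fold higher. HERPUD1, of the degradation of misfolded proteins, stood at 6.07 and 7.12. PDIA4 and HSP90B1, of protein folding, were higher by 0.83 and 0.68, HSPA5, the main chaperone there, by 0.50, and ERN1, the sensor IRE1, by 0.64. Heat shock proteins and cochaperones, mostly of the cytosol and mitochondria, had a median of -0.15 over 33 genes, with 10 positive and 23 negative. At least 1.5-fold lower were 4, and DNAJB2 was the 1 higher by as much, at 0.69. HSPA8, the constitutive HSP70, stood at 10.3 and 9.47, HSPD1, of mitochondria, at 8.19 and 7.38, and CHORDC1, a cochaperone of HSP90, at 4.91 and 3.95. Of the 14 genes of the TRiC chaperonin and prefoldin, which fold tubulin and actin, 13 were lower, with a median of -0.29, though 0 reached 1.5-fold. Proteasome subunits had a median of -0.01 and 0 of 32 were 1.5-fold apart.

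Autophagy and lysosome genes stood higher. Of 38 autophagy genes 12 were at least 1.5-fold higher, 5 at least 2-fold higher and 0 lower by 1.5-fold, with a median of 0.29. BNIP3L, a mitophagy receptor like BNIP3, stood at 6.67 and 8.17. GABARAPL1, of the ATG8 family that coats the autophagosome, stood at 4.02 and 5.60. SQSTM1, the cargo receptor p62, stood at 6.35 and 7.59, and WIPI1, of early autophagosomes, at 4.10 and 5.32. All 5 genes at least 2-fold higher were at least 1.5-fold higher in HK1EBV, between 0.85 and 1.84. Of 32 lysosome genes 28 were positive, with a median of 0.36, and 5 were at least 1.5-fold higher. Among them CTSB, a cathepsin, was higher by 0.80, NEU1, a sialidase, by 0.77 and PSAP by 0.66. TFEB, the factor of lysosome genes, differed by 0.19.

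Amino acid supply gave no single direction. Of 35 aminoacyl-tRNA synthetases 23 were lower, with a median of -0.14. AARS1 was the 1 at least 1.5-fold higher, at 7.92 and 8.62, and VARS1, WARS2 and MARS2 were at least 1.5-fold lower, by 0.76, 0.67 and 0.62. SLC7A5, the large neutral amino acid transporter, stood at 9.77 and 9.16, and its relative SLC7A8 at 5.29 and 6.16. PHGDH, which opens serine synthesis, differed by 0.56.

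Genes for making ribosomes had a median of -0.61, with 36 of 70 at least 1.5-fold lower, 7 at least 2-fold lower and 0 at least 1.5-fold higher. Ribosome assembly takes place in the nucleolus and is a main cost of cell growth, driven in part by MYC. UTP20, of the small subunit processome, stood at 4.56 and 3.07. RRS1 and ESF1, also of ribosome assembly, stood at 5.10 and 3.62 with DMSO and at 3.73 and 2.31 with CAPE. DKC1, which modifies ribosomal RNA, was lower by 1.07, and FBL, fibrillarin, by 0.31. MYC stood at 7.48 and 6.95. Here both lines were close, with a median of -0.59 in HK1EBV and UTP20, RRS1 and ESF1 lower there by 1.60, 1.66 and 1.70.

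The ribosome's own proteins stood apart from the factors that assemble it. Of 55 cytosolic ribosomal proteins, 0 were 1.5-fold apart and the median was -0.02, from -0.56 for RPL22 to 0.50 for RPL41. RNA polymerases I and III, which make ribosomal and transfer RNA, had a median of -0.27 and 11 of 30 genes at least 1.5-fold lower, led by POLR1B at 5.42 and 4.24. The nuclear pore and its carriers had a median of -0.37, with 46 of 49 negative and 11 at least 1.5-fold lower, among them RANBP2, at 4.17 and 3.16, and SEH1L, at 6.75 and 5.86. Splicing factors had a median of -0.26 with 6 of 55 at least 1.5-fold lower. SRSF1, SRSF2 and HNRNPA2B1 were each lower by 0.86. Translation factors had a median of -0.10, with EIF3J lowest at -1.06.

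The E-box CACGTG, which MYC and other factors can bind and which contains the hypoxia core ACGTG, was present in 8 of 59 promoters of ribosome assembly (13.6%) and in 8.53% of the compared genes. Members with and without it had medians of -0.62 and -0.55. UTP20 (chr12:101279985-101280104, plus strand) is shown as the lowest member, with the match in capitals close to the start of the gene.
UTP20: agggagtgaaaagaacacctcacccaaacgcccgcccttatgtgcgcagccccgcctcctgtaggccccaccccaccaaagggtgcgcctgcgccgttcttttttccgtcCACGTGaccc

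Replication-dependent histones are made in S phase, from clustered genes that are near-identical copies, so a probe set can read several of them and each value is uncertain as that of 1 gene. Of 58 genes in the list, which includes their regulators NPAT and CASP8AP2, 57 were lower, 34 at least 1.5-fold and 14 at least 2-fold, with a median of -0.70, the lowest of the 81 lists. The linker histone genes H1-1, H1-3 and H1-5 stood at 5.38, 7.10 and 8.43 with DMSO and at 2.80, 5.55 and 6.96 with CAPE. Of the core histones H3C12 stood at 6.26 and 4.40 and H2BC14 at 8.99 and 7.26. H1-10, a linker histone that is not tied to S phase, was the 1 gene higher, at 3.64 and 4.30. SLBP, which binds the stem-loop at the end of histone RNA, stood at 5.64 and 5.21. In HK1EBV the median was -0.21, with H1-1 lower by 2.05 and H3C12 by 0.95. About the 4-array mean the histones stood at 0.27 and -0.38 on the HK1 arrays and at 0.16 and -0.08 on those of HK1EBV.

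Genes of mitosis were lower as well. In bulk RNA a smaller share of cells in a phase and less RNA per cell cannot be told apart. Of 68 genes of kinetochore, spindle and condensin 57 were lower, 16 at least 1.5-fold and 5 at least 2-fold, with a median of -0.39. CENPF, of the kinetochore, stood at 5.02 and 3.51. ASPM, of the spindle pole, stood at 4.47 and 3.12, and PLK1, a kinase of mitotic entry, at 8.03 and 6.88. Of 38 kinesins, the microtubule motors, 8 were at least 1.5-fold lower, 5 of them at least 2-fold, while the median was -0.09. KIF20A, needed to part the daughter cells, stood at 5.94 and 3.77 and KIF20B at 4.23 and 2.76. KIF23, also of cell division, was lower by 1.08. The lowest kinesin not known from mitosis was KIF27, at 3.50 and 2.26, and it was higher by 0.45 in HK1EBV.

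The other cell cycle lists held genes in both directions. CCNB1, the mitotic cyclin, stood at 6.42 and 5.21, but its partner CDK1 at 5.04 and 4.81, and MKI67, a proliferation marker, at 6.99 and 6.46. CDKN1A, the inhibitor p21, stood at 5.11 and 6.08, and CCNG2, a cyclin of resting cells, at 3.48 and 4.36. Of 53 genes of DNA replication 42 were lower, but only 3 by 1.5-fold or more, TIPIN, MCM6 and CLSPN, at -1.12, -0.89 and -0.72. Homologous recombination and Fanconi genes had a median of -0.22, with 4 of 34 at least 1.5-fold lower, RAD50 the lowest at -0.82. Cohesin and chromosome structure genes had a median of -0.27, with 21 of 23 negative and 4 at least 1.5-fold lower. SMC3, of cohesin, stood at 6.27 and 5.07, and LMNB1, of the nuclear lamina, at 5.36 and 4.26. Of 15 tubulins 12 were lower, with a median of -0.23 and TUBA1C lowest, at 8.65 and 7.89.

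The CHR element TTTGAA, known from promoters of mitotic genes, was present on either strand in 22 of 56 promoters of the kinetochore and spindle list (39.3%), in 8.89% of the compared genes and in 13.6% of 27305 promoters. Members with it had a median of -0.53 and those without it of -0.25. Windows are shown for ASPM (chr1:197146720-197146839, minus strand) and HMMR (chr5:163460512-163460631, plus strand), a spindle protein lower by 1.29, as members more than 2-fold lower that hold it. ASPM has the element on the other strand, and HMMR has it in tandem.
ASPM: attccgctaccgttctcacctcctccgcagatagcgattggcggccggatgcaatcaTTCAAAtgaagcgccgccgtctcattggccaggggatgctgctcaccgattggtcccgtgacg
HMMR: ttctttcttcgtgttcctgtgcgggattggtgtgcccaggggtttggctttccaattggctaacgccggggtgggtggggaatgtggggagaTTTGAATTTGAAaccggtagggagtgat

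Targets of p53 and genes of apoptosis had medians near that of all genes, 0.08 over 36 and 0.09 over 41. BTG1, which slows proliferation, stood at 5.61 and 7.26, TP53I3, an oxidoreductase, at 2.30 and 3.18, and SESN2 at 3.98 and 4.71. MDM2, the p53 ligase and target, stood at 5.56 and 5.48. Of the death ligands TNFSF10, known as TRAIL, stood at 3.90 and 5.35 in HK1, against 5.79 and 6.20 in HK1EBV. Its receptor gene TNFRSF10B differed by 0.56 and the adaptor TRADD by 0.90. BAX differed by 0.09, BCL2, under the array median at 1.67 with DMSO, by -0.10, and MLKL, of necroptosis, by -0.78.

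Genes of NF-κB were not lower as a list, and the activity of this factor, which CAPE is known to block, was not measured. Its subunits are held in the cytoplasm by IκB proteins, and TNFAIP3, CYLD and NFKBIA are targets that switch it off again. Of 31 genes 7 were at least 1.5-fold higher, 4 at least 2-fold higher and 0 lower by 1.5-fold. Of the differences 12 were negative, and the median was 0.09. Of the subunits, NFKB2 stood at 4.39 and 5.47, RELA at 7.11 and 7.41, RELB at 3.09 and 3.44 and NFKB1 at 6.23 and 6.17. Of the inhibitors, TNFAIP3 stood at 4.63 and 5.69, CYLD at 3.67 and 4.41 and NFKBIA at 7.76 and 8.08. Of the targets, TRAF1, an adaptor of TNF receptors, stood at 1.23 and 2.53 and SOD2, the mitochondrial superoxide dismutase, at 4.86 and 5.87. CHUK had the lowest difference of the list, -0.54, and IKBKB, BCL3 and NFKBIE differed by -0.28, -0.17 and -0.15. The median of the list was 0.20 when the level filter used the HK1 arrays alone.

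Inflammatory messengers went both ways. CXCL8, a chemokine for neutrophils, stood at 3.22 and 4.35, while CXCL1, a related one, stood at 3.17 and 2.78. IL1B stood at 9.23 and 8.06, IL1A at 8.57 and 8.33, and IL6 was near the filter, at 1.30 and 1.34. IL10RB, a shared receptor chain, was the highest of 33 interleukin genes, at 2.49 and 3.90, and differed by -0.09 in HK1EBV. PTGS1 and PTGS2, the cyclooxygenases, stood at 5.75 and 6.64 with DMSO and at 6.74 and 6.94 with CAPE. Interferon-stimulated genes had a median of 0.02 over 40, from SAMD9 at -0.77 to OAS1 at 0.71, and class I antigen presentation one of 0.17 over 15, with ERAP1 highest at 0.60.

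Growth factor signalling held ligands and a feedback inhibitor at least 2-fold apart. Of the ligands of the EGF receptor family, EREG stood at 7.69 and 6.62, NRG1 at 7.39 and 6.38 and HBEGF at 5.59 and 6.46. The receptor gene EGFR stood at 9.45 and 9.68. ERRFI1, a feedback inhibitor of the receptor, stood at 7.24 and 8.50. The list of MAP kinase phosphatases and Sprouty proteins held 24 genes, among them others such as ETV4, ETV5 and CCND1. Of the 24, 6 were at least 1.5-fold higher and 0 lower, with 11 negative and a median of 0.08. DUSP10 was the highest, at 4.87 and 6.20, and DUSP4 and SPRY2 the lowest, at -0.43 each. In the AP-1 list, of early response factors, ATF3, KLF6 and FOSL2 were at least 2-fold higher and FOSL1 lower, at 7.57 and 6.95. KLF6 stood at 3.57 and 4.70 and FOSL2 at 5.23 and 6.28, and in HK1EBV they differed by -0.05 and 0.00.

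The TGF-β list held genes at least 2-fold apart in both directions. TGFB2, a ligand, stood at 5.39 and 4.28, and INHBA, which encodes activin A, at 2.08 and 3.14. LTBP1, which stores TGF-β in the matrix, stood at 2.72 and 3.72, and SMAD3, of signal transmission, at 6.85 and 6.16. Of WNT genes the inhibitor DKK1, at 6.46 and 5.36, was the 1 of 38 at least 1.5-fold apart, and of 29 NOTCH genes there were 0. CCN1, a target of YAP, was lower by 0.95. IGFBP3, which binds insulin-like growth factors, stood at 7.48 and 8.58, and differed by -0.37 in HK1EBV, while NRP2, a co-receptor, stood at 5.97 and 4.90. Clock genes had a median of 0.25 over 17, with NR1D1, NFIL3 and BHLHE40, all repressors, higher by 1.17, 1.04 and 0.95, and CLOCK lower by 0.58.

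Genes of squamous identity differed by list. Of 29 keratins 0 were 1.5-fold apart and the median was -0.01, with KRT14 of the basal layer at 0.46 and KRT15 at -0.49. Cornified envelope and S100 genes had a median of 0.01 over 44, with PADI3, which modifies hair and skin proteins, lowest at 3.70 and 2.42 and CSTB, a cystatin, highest at 7.03 and 7.83. Tight and adherens junction genes had a median of 0.18 over 31, with 23 positive, 3 at least 1.5-fold higher and 0 lower. CDH1, E-cadherin, stood at 7.61 and 8.39 and EPCAM at 8.10 and 7.63. Of the desmosomal cadherins, DSC2 and DSG3 were higher by 0.86 and 0.82. SOX2, a factor of basal cells, stood at 4.20 and 3.32 and PRDM1, of differentiating ones, at 2.03 and 2.93. In HK1EBV DSC2 differed by 0.06 and SOX2 by -1.55.

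The matrix lists had medians from -0.23 for tubulins to 0.19 for the urokinase system and epithelial serine proteases. Of 37 metalloproteinases and TIMPs, 4 were at least 1.5-fold higher and 0 lower, with a median of 0.09. Beside MMP13, ADAM8, a membrane protease, stood at 4.19 and 5.50, MMP10 at 3.41 and 4.53 and MMP3 at 1.46 and 2.28. In HK1EBV these 3 differed by 0.45, -0.20 and 0.31. MMP9, a gelatinase, stood at 1.47 and 1.63, under the array median, and MMP2 at 3.71 and 3.95. PLAU, urokinase, stood at 5.99 and 7.06, and SLPI, a protease inhibitor of mucosa, at 5.04 and 6.26, while SERPINB13, a cathepsin inhibitor of squamous cells, stood at 5.36 and 4.17.

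Of genes tied to epithelial-mesenchymal transition, 4 of 26 were at least 1.5-fold higher and 0 lower, with 7 negative and a median of 0.13. Beside ITGA5, LOXL2, which cross-links collagen, stood at 4.99 and 6.34 and VIM, vimentin, at 3.79 and 4.73. SNAI2, a factor of this transition that basal cells also carry, stood at 9.51 and 9.68 and SNAI1 at 1.02 and 1.47. ZEB1, another such factor, and CDH2, N-cadherin, differed by -0.31 and -0.28. LAMB3, a laminin of the basement membrane, stood at 8.45 and 9.36. Integrins and laminins had a median of 0.18 over 31, and actin cytoskeleton genes of 0.00 over 44, with GSN, gelsolin, the 1 at least 1.5-fold higher, at 4.16 and 4.97.

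Outside every list stood 44 of the genes at least 2-fold higher and 46 of those at least 2-fold lower. The 46 included the histone genes H4C14 and H4C15, each lower by 1.02, which had the same value as each other on every array. Gene families were also formed from the shared start of the symbols, 106 of at least 15 genes, and some shared members with the lists. The lowest medians were those of NUP (nuclear pore) and DHX (RNA helicase), both -0.29, MRPS (-0.24) and POLR (-0.23), and the highest that of KDM (histone demethylases) at 0.29. Of 337 olfactory receptor genes, at all levels, 0 were 1.5-fold apart, with an SD of 0.173. Long non-coding RNA gave 2 genes at least 2-fold higher and 1 lower of 450. Of 121 small nucleolar RNA genes, most of which guide the modification of ribosomal RNA, 12 were at least 1.5-fold lower and 1 higher, with a median of -0.09 and SNORD4B and SNORA33 lowest at -1.10 and -1.03.

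Of 82 microRNA genes, 1 was at least 2-fold apart. MIR181B1 stood at 3.34 with DMSO and 2.23 with CAPE, and at 2.63 and 2.75 in HK1EBV. Its mature forms in RefSeq lie at chr1:198858925-198858947 and chr1:198858887-198858907, both on the minus strand of GRCh38.p14. They are printed as the mature products of this gene, with the seed, bases 2 to 8, in capitals. The probe set is named for the microRNA gene, so its value is not given as the level of either mature form.
hsa-miR-181b-5p: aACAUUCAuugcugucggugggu
hsa-miR-181b-3p: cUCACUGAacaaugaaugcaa

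Set against HK1EBV, whose 2 arrays share none with HK1, 92 of the 102 genes at least 2-fold higher in HK1 were higher there too, 63 by 1.5-fold or more and 41 by 2-fold or more. Of the 104 at least 2-fold lower, 98 were lower there, 65 by 1.5-fold or more and 31 by 2-fold or more. Of all 15194 genes, 7316 were higher in HK1EBV, 3.90% by 1.5-fold or more and 0.691% by 2-fold or more, and 3.63% and 0.533% were lower by as much. The median HK1EBV difference of the genes 2-fold apart in HK1 was 0.78 and -0.73. Among the lists, ribosome biogenesis, autophagy, lysosome and NRF2 targets had medians within 0.1 of each other in both lines. Hypoxia targets, glycolysis, cholesterol synthesis and histones were farther from 0 in HK1, and the ATF4 list in HK1EBV. Whether these lists differ between the lines was not tested, since the series has 1 array a group.

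**Figure D4:**
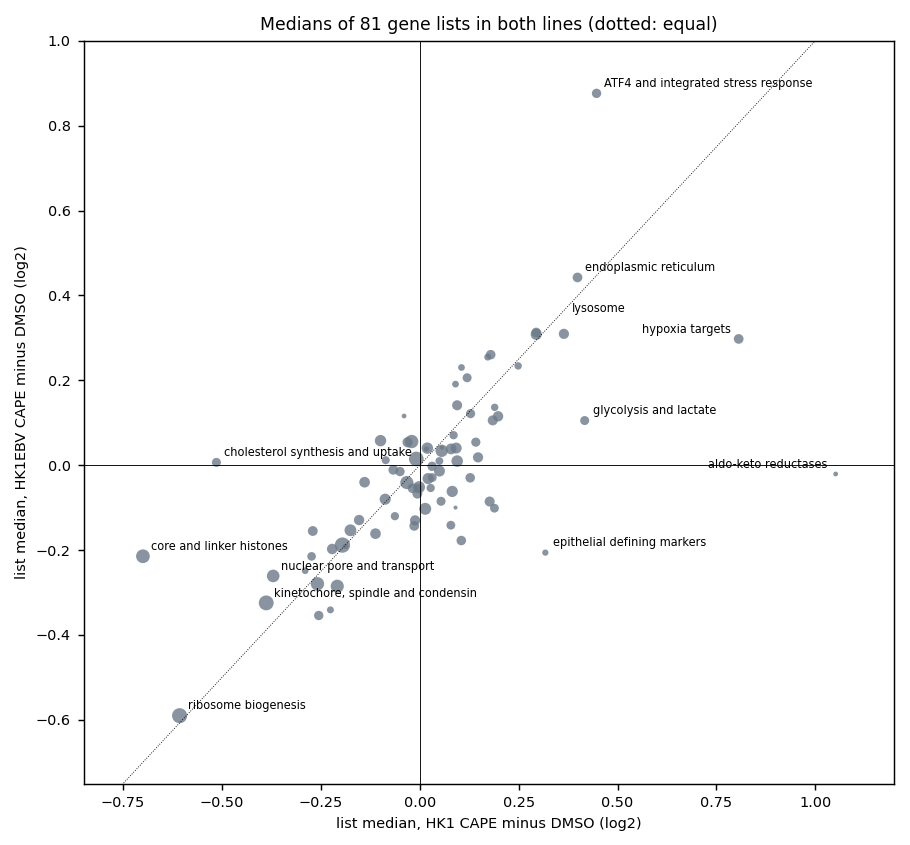
List medians of the CAPE difference in HK1 (log2, horizontal axis) against HK1EBV (log2, vertical axis) for 81 gene lists, 1 point a list, larger for longer lists; the dotted line marks equal medians. Ribosome biogenesis lies near the line at -0.61 and -0.59, hypoxia targets below it at 0.81 and 0.30, and cholesterol synthesis off it at -0.51 and 0.01.

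The 4 arrays show from which side these distances came. The hypoxia targets stood at -0.19 and -0.27 about their 4-array mean on the DMSO arrays of HK1 and HK1EBV, and at 0.53 and 0.10 on the CAPE arrays, so the control arrays were close and the CAPE arrays apart. For cholesterol synthesis it was the other way round. The ATF4 list stood at -0.14 on HK1 DMSO and -0.58 on HK1EBV DMSO, and at 0.34 and 0.36 on the CAPE arrays, so that here too the control arrays were apart.

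**Figure D5:**
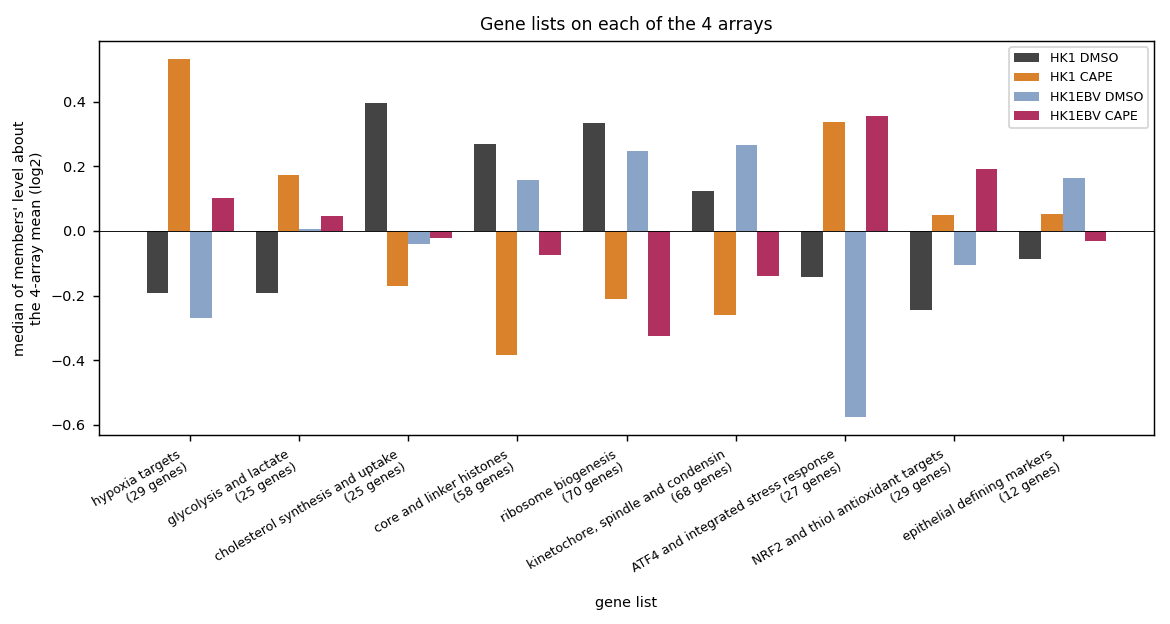
Median level of list members about each gene's mean over the 4 arrays (log2, vertical axis), for 9 lists and each of the 4 arrays (bars from 0, 1 array each, no error). The cholesterol bar of HK1 DMSO, at 0.40, stands above the 3 others, and the hypoxia bar of HK1 CAPE, at 0.53, above the HK1EBV CAPE bar at 0.10.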

How the data were processed

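RNA of 4 samples was measured on single-colour Affymetrix arrays, 1 a group. The deposited values are log2 expression, made with RMA per the submitters' processing notes, a method of background correction, quantile scaling and a summary per probe set. The log was taken as base 2, as RMA gives, with its base, any later shift, the RMA version and the genome build not given in the sources used here. Arrays have no depth, and with 1 array a group no precision can be given.

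Probe sets were named through the platform annotation, and 18583 of the 18612 with 1 symbol were matched by Entrez number to RefSeq (GRCh38.p14), which changed 0 symbols. The fold and level thresholds, and the motifs sought in RefSeq promoters, stand beside the results. Genes were named by rule: the 25 highest and 25 lowest, up to 6 members with the largest difference in each list, the 2 at the edge of the filter, genes whose probe sets disagree, and the defining members of a list. CHAC1, ACLY, LDHA, TPI1, TFEB, FBL, RELB, IL1A, IL6 and SNAI2 and others outside these were chosen after their values were seen. The comparison and the lists were chosen with earlier results of these data known. Differences were computed with pandas 2.3.3 and NumPy 2.4.6 in Python 3.11.15, and the counting step was checked on simulated arrays. No difference was tested. The 8 alternatives changed the level filter, the scaling (median, quantile and loess with statsmodels 0.14.6), the probe sets of a gene and a floor on dim values.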

Additional observations from a re-analysis of the deposited data

Results flagged for a closer look

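The difference of INSIG1 was -1.75 in HK1 but 0.83 in HK1EBV, with levels of 5.74 and 3.99 in HK1 and of 5.10 and 5.93 in HK1EBV. Opposite signs were also seen for 3 list medians. The defining epithelial markers stood at 0.32 in HK1 and at -0.21 in HK1EBV, the urokinase system and epithelial serine proteases 0.19 and -0.10, and the squamous lineage transcription factors 0.105 and -0.18. With 1 array a group the difference between the lines was not tested.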

How the results depend on the processing

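The counts of genes at least 2-fold apart stayed between 95 and 106 higher and between 97 and 112 lower over the 8 alternatives, which shared 192 to 206 genes with the 206 reported. Under none (0) of them did a list median of at least 0.25 in size, or a named gene at least 1.5-fold apart, reverse its sign. Smaller medians could cross 0. Without a level filter that of chromatin modifiers went from -0.0087 to 0.0012, and that of the actin cytoskeleton from -0.0019 to 0.006. The filter at the 50th percentile gave a median for 77 of the 81 lists only and left out 40 of the 473 named genes. That filter moved the median of the aldo-keto reductases to 1.69, of hypoxia targets to 0.95 and of glycolysis to 0.54. For the aldo-keto reductases it was 0.056 without a filter and 0.84 with a floor on dim values. With the mean of its probe sets AKR1C1 differed by 1.08 and BIRC5, of the spindle list, by -0.31 in place of -0.65. Shifting the arrays to one median put 43.4% of the genes 1.5-fold apart on the higher side, against 47.1%. No array could be left out. No paired analysis was possible because each group has 1 array. Dim genes near the filter, such as AKR1B10, TRAF1 and CYP1A1, are limited by signal over background.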
